A study of Mus musculus with 36 samples.

Results

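The 9 genes described here carry the insulin signal in fat cells and bring glucose into them. They are Insr, Irs1, Irs2, Pik3r1, Akt2, Tbc1d4, Slc2a1, Slc2a4 and Hk2, taken as a list of symbols and matched to GENCODE M21 gene identifiers, 9 of the 55536 genes counted in each library. All 9 had enough counts to be tested, beside 16723 genes tested in all. RNA was sequenced from 36 libraries of mouse brown pre-adipocyte lines in which Rxra had been knocked out with Cas9 (Rxra-/-). Every cell line therefore lacked its own RXRα, a nuclear receptor that pairs with PPARγ, and carried a pBabe retroviral vector that re-expressed it. RxraWT lines received the wild type receptor and RxraSA lines received the S22A form, in which the serine at residue 22 is replaced by alanine. Each genotype was made in 2 Rxra-/- cell clones, labelled 48 and 66, and RNA was taken at days 0, 2 and 6 of differentiation with 3 libraries for each clone, genotype and day. No line with intact endogenous Rxra was analysed here. The libraries of clone 48 formed library pool 1 and those of clone 66 formed pool 2, so a clone difference and a pool difference cannot be told apart. Cells reached confluence, counted as day 0, in medium with insulin and triiodothyronine, were given dexamethasone, isobutylmethylxanthine and indomethacin until day 2, and then returned to insulin and triiodothyronine, so insulin was present at every day sampled.

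As background, insulin binds the insulin receptor, a tyrosine kinase encoded by Insr, and the receptor phosphorylates the adaptor proteins IRS1 and IRS2. The adaptors recruit phosphoinositide 3-kinase through its regulatory subunit p85α, the product of Pik3r1, and the lipid it makes leads to activation of the kinase AKT2. AKT2 phosphorylates and inhibits TBC1D4 (AS160), a Rab GTPase-activating protein that holds GLUT4 vesicles inside the cell, and GLUT4, encoded by Slc2a4, then moves to the cell surface. GLUT1, encoded by Slc2a1, takes up glucose without needing insulin to reach the surface, and hexokinase II, encoded by Hk2, traps the glucose as glucose 6-phosphate. Brown adipocytes take up glucose avidly and respond strongly to insulin.

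Promoter sequences were searched because several of the 9 genes rose together by day 2. RefSeq windows on GRCm38.p6, the build of the counts, were at hand for 7 of the 9 genes, and not for Insr and Slc2a4. The 250 bases before each annotated start were searched on both strands for CACGTG (an E-box) and TGACGT (the core of a cAMP response element), which do not overlap each other in the windows shown. These motifs were chosen after the sequences had been seen. The E-box was found before Irs1, 115 bases from its start, and before Irs2, 44 bases from its start, and TGACGT was found before Hk2, 51 bases from its start on the reverse strand. Among 32851 windows of the same length, 6.02% held the E-box and 6.47% held TGACGT. The other 8 windows, those of Pik3r1, Akt2, Tbc1d4 and Slc2a1, held neither motif, and no match says only that these letters are not in the window. The 3 windows with a match are shown 5′ to 3′ with the motif in capitals, at chr1:82291440-82291689 (minus strand) for Irs1, chr8:11008930-11009179 (minus strand) for Irs2 and chr6:82774455-82774704 (minus strand) for Hk2. The pair of adaptor genes is shown because both hold an E-box while their RNA followed different courses, and Hk2 because its RNA rose most by day 2.
Irs1: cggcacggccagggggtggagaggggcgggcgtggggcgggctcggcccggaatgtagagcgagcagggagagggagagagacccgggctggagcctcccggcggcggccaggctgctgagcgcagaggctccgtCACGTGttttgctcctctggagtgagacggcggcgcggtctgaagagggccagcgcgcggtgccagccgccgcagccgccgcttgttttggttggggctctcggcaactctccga
Irs2: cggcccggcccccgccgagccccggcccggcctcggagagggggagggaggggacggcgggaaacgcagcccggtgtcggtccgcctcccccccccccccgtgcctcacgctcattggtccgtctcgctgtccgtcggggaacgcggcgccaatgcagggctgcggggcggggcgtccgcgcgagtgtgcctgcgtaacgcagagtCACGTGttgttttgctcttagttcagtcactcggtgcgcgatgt
Hk2: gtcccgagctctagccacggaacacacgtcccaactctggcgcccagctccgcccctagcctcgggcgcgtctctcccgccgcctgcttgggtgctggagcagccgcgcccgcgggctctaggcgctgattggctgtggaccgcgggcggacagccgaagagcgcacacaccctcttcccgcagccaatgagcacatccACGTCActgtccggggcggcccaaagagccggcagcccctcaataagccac

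Total counts lay between 11351078 and 24349263 per library, with a median of 18338726, and values below are CPM (counts scaled to a common library size with TMM factors). Adipocyte markers (Pparg, Cebpa, Fabp4, Adipoq, Plin1, Cidec and Lpl) summed to medians of 742, 7735 and 12230 CPM at days 0, 2 and 6, while pre-adipocyte markers summed to 351, 67.5 and 85.8 CPM. Of the 7 brown adipocyte markers 4 passed the filter on low counts, and their list summed to medians of 24.1, 52.5 and 45.0 CPM on these days. Most of that sum was Ppargc1a (medians 13.6, 19.6 and 22.9 CPM) and Ebf2 (8.67, 21 and 21.1 CPM), both of which also have roles outside brown fat, and Elovl3 reached at most 14.3 CPM at day 2 and 1.05 CPM at day 6. Ebf2 varied widely between libraries. It ran from 0.143 to 32.5 CPM at day 0, from 0.498 to 78.8 at day 2 and from 0.79 to 62.8 at day 6. Ucp1 stayed at or below 0.307 CPM and Cidea at or below 1.66 CPM in every library, and Prdm16 and Dio2 reached at most 1.19 and 1.30 CPM, so by day 6 the cells carried adipocyte markers and very little RNA of these 4 brown genes. Marker sums of skeletal muscle, macrophage and endothelial cells reached at most 12.1, 11.5 and 0.995 CPM, with Myod1 at 0 in every library of all days. In these bulk samples a larger share of differentiated cells and more RNA per cell cannot be told apart. Rxra ran from 92.6 to 233 CPM on day 0, from 400 to 712 on day 2 and from 182 to 347 on day 6, and since reads of the retroviral and of the edited endogenous transcript fall on the same gene, its count checks neither the knockout nor the genotype label.

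Of the 9 genes, 7 rose and 1 fell from day 0 to day 2, 4 rose and 4 fell from day 2 to day 6, and all 9 were higher at day 6 than at day 0. Changes on these days were widespread, with 73.3%, 62.0% and 68.3% of all tested genes called in the same comparisons (edgeR's quasi-likelihood test, Benjamini-Hochberg adjusted p under 0.05, called in either direction), 35.8%, 31.9% and 32.9% called as higher and 37.5%, 30.1% and 35.4% as lower. The median log2 change of the 9 genes was 1.85 from day 0 to day 2, 0.33 from day 2 to day 6 and 1.5 from day 0 to day 6, beside -0.02, 0.01 and -0.03 over all tested genes. The levels of 12 libraries a day did not overlap those of the earlier day for 7 of the 9 genes at day 2, for 5 between days 2 and 6 and for 8 between days 0 and 6, where 27.7%, 17.1% and 23.2% of all tested genes did not overlap. Of the genes called from day 0 to day 2, 48.9% were higher with TMM scaling and 33.6% with scaling by library size alone, which moved the median of all genes to -0.27. From day 0 to day 6 these shares were 48.2% and 34.9%, with a median of -0.22 under library size alone. Every change called in the 9 genes had the same direction under both scalings. The test counts libraries as independent, although RxraWT and RxraSA libraries with the same clone, day and replicate number varied together. Its standard errors and p-values between days and between clones may therefore be too small.

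**Figure D1:**
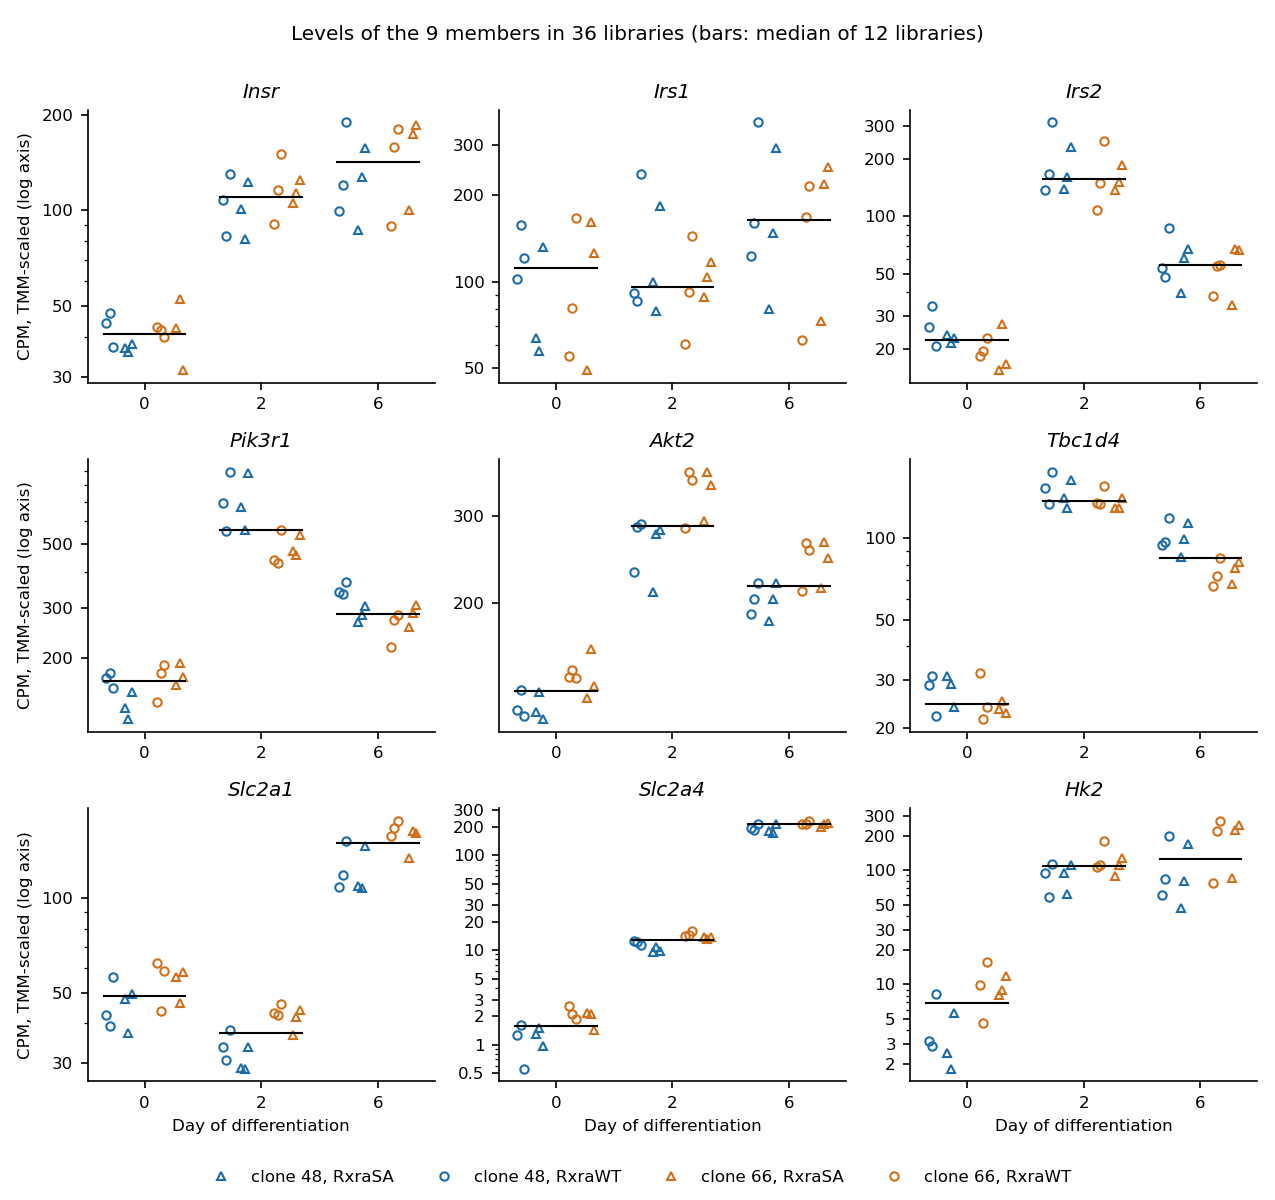
Level of each of the 9 genes in each of the 36 libraries (y axis, TMM-scaled CPM on a log axis) by day of differentiation (x axis), with clone by colour, genotype by symbol and the median of the 12 libraries of a day as a bar. Slc2a4 climbs at each day, Irs2, Pik3r1, Akt2 and Tbc1d4 peak at day 2, Slc2a1 dips at day 2 and rises by day 6, and Irs1 overlaps between all days.

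The receptor gene Insr (chromosome 8, 3122061 to 3279617, minus strand) rose early and stayed high. Its 12 libraries ran from 31.5 to 52.8 CPM at day 0 (median 41.0), from 81.5 to 150 at day 2 (median 110) and from 86.7 to 189 at day 6 (median 142). Every library of days 2 and 6 was above every library of day 0, and days 2 and 6 overlapped. The log2 change was 1.43 ± 0.13 (SE) from day 0 to day 2 (edgeR adjusted p = 3.53e-12) and 0.33 ± 0.12 from day 2 to day 6 (edgeR adjusted p = 0.0222). The later rise was 0.31 in clone 48 and 0.34 in clone 66, and neither passed the test alone (edgeR adjusted p = 0.168 and 0.136). It was lost when replicate 2 of clone 48 (edgeR adjusted p = 0.0835) or replicate 2 of clone 66 (0.0731) was left out. The SD of log2 Insr between the same-numbered pairs of a clone was 0.28 at day 2 and 0.48 at day 6. Igf1r, the related receptor for insulin-like growth factor, moved the opposite way, with log2 changes of -0.90 ± 0.15 by day 2 and -1.24 ± 0.15 by day 6 from day 0. Per kilobase of exon, Insr made up a median of 67.6% of the summed Insr and Igf1r level at day 0, 91.8% at day 2 and 94.7% at day 6.

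The adaptor genes Irs1 and Irs2 followed different courses. Irs2 (chromosome 8, 10984681 to 11008458, minus strand) lay between 15.6 and 33.9 CPM at day 0, between 108 and 312 at day 2 and between 34.3 and 86.6 at day 6, with medians of 22.4, 156 and 55.5. No 2 days overlapped. It rose by a log2 change of 2.98 ± 0.16 to day 2 and fell by 1.65 ± 0.15 to day 6, which left it 1.32 ± 0.15 above day 0 (edgeR adjusted p = 5.71e-18, 1.59e-11 and 1.90e-09). Irs1 (chromosome 1, 82233101 to 82291416, minus strand) lay between 49.1 and 166 CPM at day 0, between 60.6 and 238 at day 2 and between 62.4 and 359 at day 6, with medians of 112, 95.8 and 164. Its days overlapped throughout. Irs1 changed by a log2 value of 0.11 ± 0.27 to day 2, which was not called (edgeR adjusted p = 0.711, 95% interval -0.43 to 0.66), and by 0.64 ± 0.27 from day 2 to day 6 and 0.75 ± 0.27 from day 0 to day 6, which were (edgeR adjusted p = 0.0371 and 0.0133).

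These later calls on Irs1 lay near the threshold. Within clone 48 and clone 66 the change from day 0 to day 6 was 0.90 and 0.63 and passed the test in neither (edgeR adjusted p = 0.0573 and 0.181). The change from day 2 to day 6 was not called without replicate 2 of clone 48 (0.61, edgeR adjusted p = 0.0859), without replicate 2 of clone 66 (0.60, adjusted p = 0.105), without replicate 3 of clone 66 (0.59, adjusted p = 0.0911) or with clone-specific groups (0.64, adjusted p = 0.0506). The change from day 0 was not called without replicate 3 of clone 48 (0.57, edgeR adjusted p = 0.0502) or with scaling by library size alone (0.55, adjusted p = 0.0592). With the replicate number of a clone as a block both changes were called. Irs2 made up a median of 24.9% of the summed Irs1 and Irs2 level per kilobase at day 0 (range 16.1 to 35.3%), 69.4% at day 2 (64.5 to 74.6%) and 31.5% at day 6 (25.2 to 46.9%). The share rose by 44.2 percentage points and then fell by 35.8 (adjusted p = 0.0117 for each, exact permutation test of day labels within clones, two-sided, whose smallest p is 0.005 before adjustment), and day 6 differed from day 0 by 8.34 points, which was not called (exact permutation adjusted p = 0.168). Of the exon bases of Irs1, 30.9% also lie in exons of Gm9747, an antisense gene with no counts, and pairs assigned to both were not counted, so the level of Irs1 per length is a lower estimate. With the shared bases taken out of the lengths, the share of Irs2 was 19.0%, 61.6% and 24.6% at the 3 days, and the same comparisons of shares between days were called.

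Pik3r1 and Akt2, which carry the signal onward from the adaptors, peaked at day 2 as Irs2 did. Pik3r1 (chromosome 13, 101680563 to 101768217, minus strand) lay between 122 and 192 CPM at day 0, between 429 and 893 at day 2 and between 218 and 368 at day 6, with no overlap between any 2 days. Its log2 change was 1.85 ± 0.11 to day 2, and it then fell by 1.01 ± 0.11 to day 6 (edgeR adjusted p = 5.25e-17 and 2.81e-10). Akt2 (chromosome 7, 27591552 to 27640826, plus strand) lay between 116 and 161 CPM at day 0, between 210 and 369 at day 2 and between 183 and 265 at day 6. Its log2 change was 1.17 ± 0.06 to day 2, followed by a fall of 0.42 ± 0.06 on the log2 scale (edgeR adjusted p = 1.14e-17 and 6.53e-07). Every library of days 2 and 6 was above every library of day 0, while days 2 and 6 overlapped.

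Paralogues of these genes took other courses. Pik3r2 and Pik3r3, which encode the other class IA regulatory subunits p85β and p55γ, fell by 0.97 ± 0.10 and 0.84 ± 0.11 on the log2 scale by day 2, and the share of Pik3r1 in the summed level of the 3 genes per kilobase went from a median of 30.8% to 72.9% and then to 46.0%. Akt1 changed by a log2 value of 0.14 ± 0.07 by day 2, which was not called (edgeR adjusted p = 0.083). From day 2 to day 6 Akt1 fell by 0.64 ± 0.07 on the log2 scale, the interval in which Akt2 fell too.

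**Figure D2:**
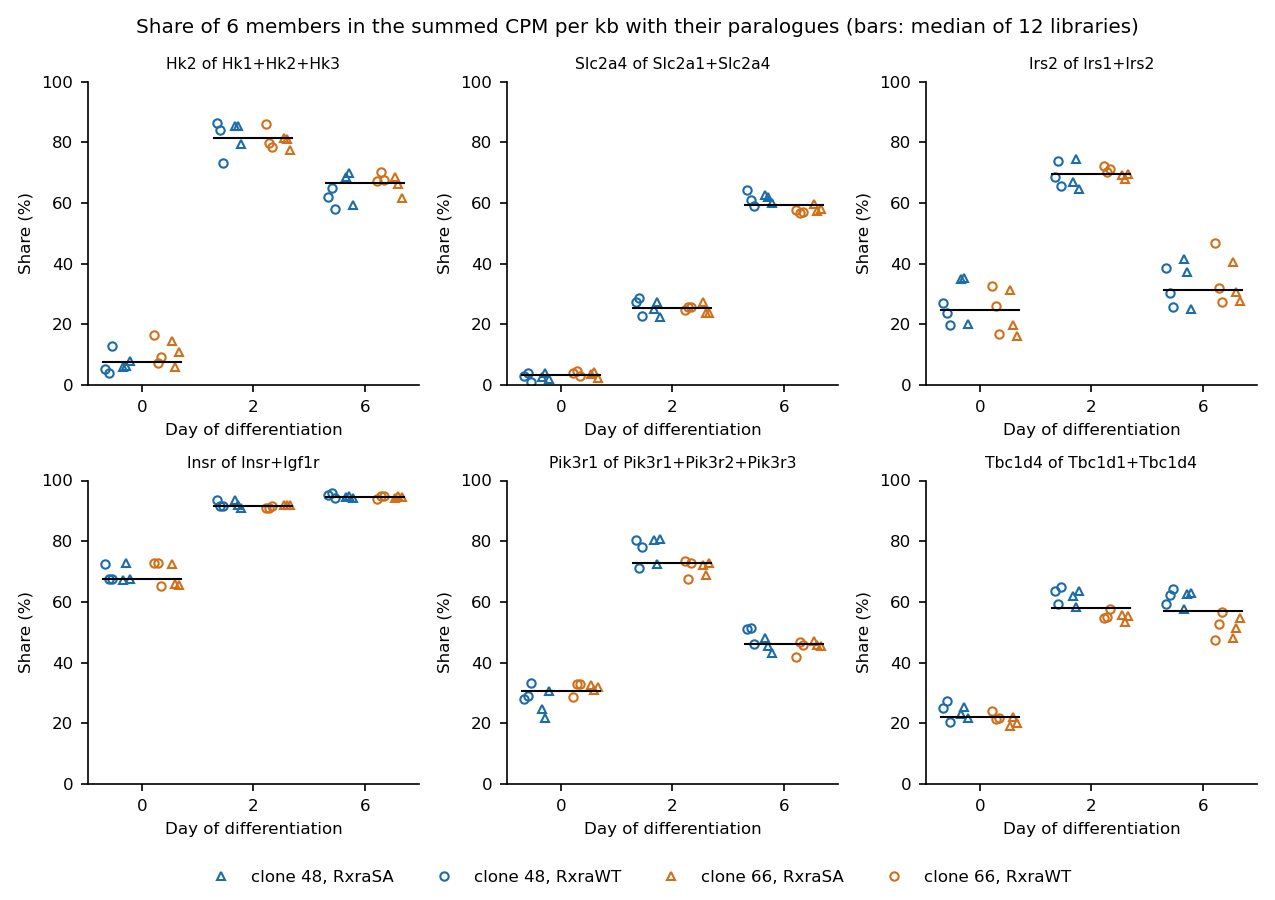
Share of each of 6 genes in the summed TMM-scaled CPM per kilobase of itself and its paralogues (y axis, percent, from 0 to 100) in each library by day of differentiation (x axis), with clone by colour, genotype by symbol and the median of 12 libraries as a bar. The shares of Hk2, Irs2 and Pik3r1 were highest at day 2, while those of Slc2a4 and Insr were highest at day 6.

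Tbc1d4 (chromosome 14, 101442360 to 101609191, minus strand), the brake on GLUT4 vesicles, also peaked at day 2. It lay between 21.5 and 32.0 CPM at day 0, between 130 and 177 at day 2 and between 67.0 and 119 at day 6, and no 2 days overlapped. The log2 change was 2.46 ± 0.08 to day 2 and the later fall was 0.71 ± 0.08 (edgeR adjusted p = 7.07e-24 and 7.20e-10). Tbc1d1, its paralogue, rose by 0.18 ± 0.05 on the log2 scale by day 2 and fell by 0.60 ± 0.05 from day 2 to day 6. The share of Tbc1d4 in the pair went from a median of 22.0% to 58.0% and 57.2%, a rise of 36 percentage points by day 2 (exact permutation adjusted p = 0.0117) with no called difference afterwards (-1.96 points, exact permutation adjusted p = 0.42).

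The glucose transporters changed places. Slc2a4 (chromosome 11, 69942539 to 69948188, minus strand) had few counts at day 0, with 0.560 to 2.55 CPM and as few as 11 counts in a library, and rose to between 9.62 and 15.9 CPM at day 2 and between 174 and 232 CPM at day 6. No 2 days overlapped. The log2 change was 2.96 ± 0.11 to day 2, 4.04 ± 0.10 from day 2 to day 6 and 7.0 ± 0.12 in all, a fold of 128 (edgeR adjusted p = 9.98e-23, 1.20e-26 and 8.45e-32). Slc2a1 (chromosome 4, 119108711 to 119137983, plus strand) lay between 37.3 and 62.0 CPM at day 0, between 28.7 and 46.2 at day 2 and between 107 and 176 at day 6. It fell by 0.43 ± 0.08 on the log2 scale to day 2, with overlapping libraries, and then rose by a log2 value of 1.92 ± 0.08, with none (edgeR adjusted p = 6.21e-06 and 5.63e-21). Per kilobase, Slc2a4 made up a median of 3.42% of the summed level of both transporters on day 0, 25.4% on day 2 and 59.4% on day 6, and each step was called (adjusted p = 0.0117, exact permutation test).

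Hk2 (chromosome 6, 82725025 to 82774454, minus strand) made the largest early rise of the 9 genes. It lay between 1.83 and 15.8 CPM at day 0, between 58.6 and 181 at day 2 and between 46.7 and 270 at day 6. Every library of days 2 and 6 was above every library of day 0, and days 2 and 6 overlapped. The log2 change was 4.0 ± 0.29 to day 2, a fold of 16.1 (edgeR adjusted p = 1.58e-14), and 0.44 ± 0.25 from day 2 to day 6, which was not called (edgeR adjusted p = 0.131, 95% interval -0.07 to 0.95) but was without replicate 1 of clone 48 (0.63, edgeR adjusted p = 0.0402). Hk1, the housekeeping hexokinase, fell by 1.51 ± 0.31 on the log2 scale to day 2 and then rose by a log2 value of 1.69 ± 0.31, and Hk3 never passed 0.0691 CPM. The share of Hk2 in the 3 hexokinases per kilobase went from a median of 7.52% (range 3.84 to 16.6%) to 81.3% (73.2 to 86.2%) and then to 66.7% (57.9 to 70.0%), and each of these steps was called (adjusted p = 0.0117, exact permutation test).

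Across the 7 shares tested, of which 6 are described here, 18 of 21 comparisons between days were called and 0 of 21 between genotypes, adjusted over all 42 tests. Among the 6 described, those not called between days were Irs2 from day 0 to day 6 and Tbc1d4 from day 2 to day 6. The genotype tests exchanged RxraWT and RxraSA within the 6 same-numbered pairs and could not give an exact p below 0.03125. At that p a single share could not have passed the adjustment over 42 tests, so the absence of calls says nothing of how alike the genotypes were.

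The order of the 9 genes per kilobase of exon was rebuilt between the first and the last day. The lengths used here include exon bases shared with other genes, which are 30.9% of those of Irs1. The level of Irs1 is therefore a lower estimate, and its place and its neighbours in each order may be wrong. No order was drawn up with the shared bases taken out. At day 0 it ran Akt2, Pik3r1, Slc2a1, Irs1, Irs2, Tbc1d4, Insr, Hk2 and Slc2a4, with medians from 18.5 CPM per kilobase for Akt2 to 0.449 for Slc2a4. Of the neighbours in this order, only Irs1 and Irs2 did not overlap over the 12 libraries. At day 2 Pik3r1 led with a median of 55.3 CPM per kilobase, Slc2a4 was again last with 3.67, and the gaps between Tbc1d4 and Slc2a1 and between Insr and Slc2a4 were the ones without overlap. At day 6 Slc2a4 was highest with 61.8, followed by Slc2a1 with 42.5, Akt2 with 30.3, Pik3r1 with 28.3, Hk2 with 21.2, Irs1 with 18.0, Tbc1d4 with 11.1, Insr with 10.3 and Irs2 with 8.78. All neighbours overlapped at day 6, although Slc2a4 was above Slc2a1 and Slc2a1 above Akt2 within each of the 12 libraries.

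The changes between days had the same direction in both clones for every call. From day 0 to day 2, 7 genes rose and 1 fell in each clone, beside 65.3% of all tested genes called in clone 48 and 61.6% in clone 66. From day 2 to day 6, 2 rose and 4 fell in each (51.1% and 50.5% of all genes called), and from day 0 to day 6, 8 rose in each (56.3% and 57.7%). The difference between clones in the change itself was called for 1 gene in 1 interval, where 6.84%, 6.18% and 3.85% of all tested genes were called in the 3 intervals. This was Pik3r1 from day 0 to day 2, with a log2 rise of 2.23 ± 0.12 in clone 48 and 1.49 ± 0.12 in clone 66 (difference -0.74 ± 0.16, edgeR adjusted p = 0.00323). Its day 2 libraries lay between 556 and 893 CPM in clone 48 and between 429 and 560 in clone 66. The difference was not called without replicate 2 of clone 66 (-0.61, edgeR adjusted p = 0.101), and without replicate 2 of clone 48 a difference in Slc2a4 from day 0 to day 6 was called too (-0.89, edgeR adjusted p = 0.0271). With the replicate block, a coefficient for each replicate number of a clone, a difference in Pik3r1 from day 0 to day 6 was called as well (-0.40, edgeR adjusted p = 0.0362).

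**Figure D3:**
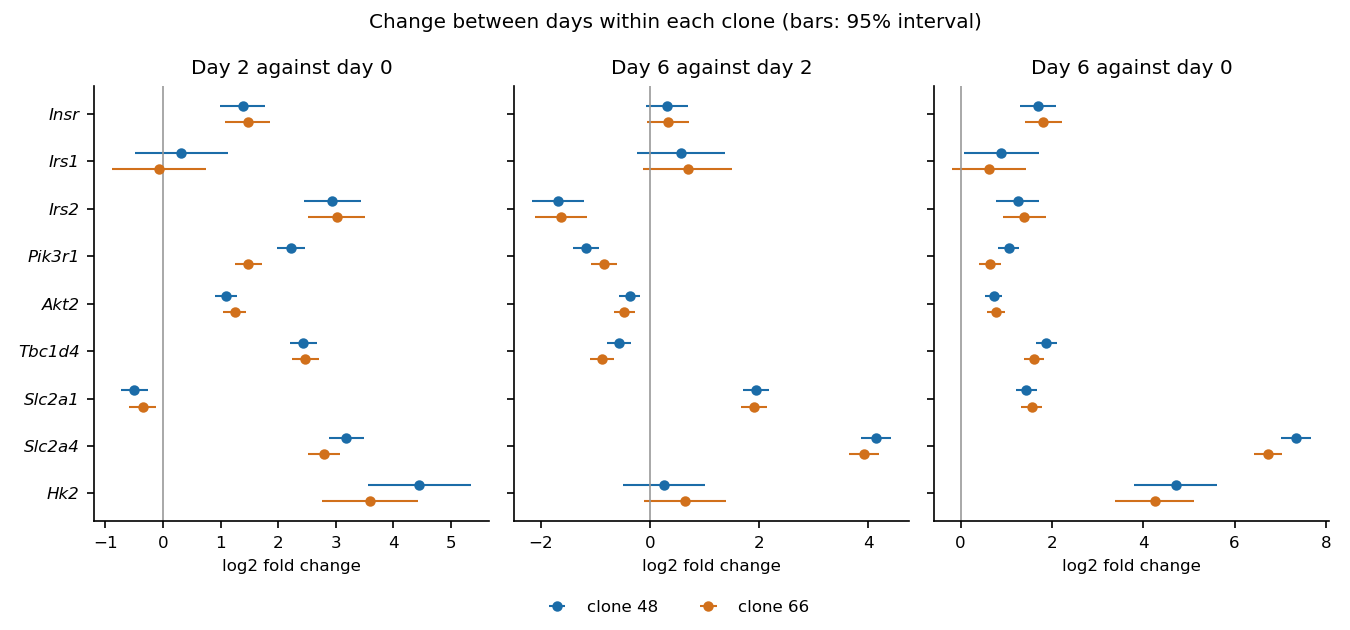
Log2 fold change of each gene between days (x axis, with its 95% interval as a bar) for clone 48 and clone 66 separately, each over both genotypes. The intervals of the clones overlap for each gene except Pik3r1 from day 0 to day 2.

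Levels of some of the 9 genes also differed between the clones on a given day. Clone 66 was called against clone 48 for 2, 4 and 3 genes at days 0, 2 and 6, beside 23.7%, 30.0% and 26.2% of all tested genes. At day 0 these were Slc2a4, with a log2 difference of 0.76, and Hk2, with 1.29. At day 2 Slc2a1 (0.40), Slc2a4 (0.37) and Akt2 (0.36) were higher in clone 66 and Pik3r1 (-0.56) was lower. At day 6 Slc2a1 (0.37) and Akt2 (0.26) were higher and Tbc1d4 (-0.43) was lower. With the replicate block the counts were 4 at day 0 and 5 at day 6. The block takes the spread between replicate numbers of a clone out of the error, and no replicate is shared between clones. Its p-values between clones may therefore be too small as well. The shares of all tested genes given here are those of the main fit, so the counts with the block have no matching share beside them. The block also raised the calls over all tested genes between days, from 12259 to 12980 between days 0 and 2. Between days 2 and 6 they went from 10366 to 11313. Hk2 at day 0 was not called without the RxraSA library of replicate 1 of clone 48 (1.21, edgeR adjusted p = 0.0509), which had the lowest total count and 1.21% of its counts on nuclear ribosomal RNA genes. It was not called without replicate 1 (1.09, edgeR adjusted p = 0.104) or replicate 2 of clone 48 (1.01, 0.159), or without replicate 3 of clone 66 (0.96, 0.162), and without replicate 3 of clone 48 the count at day 0 was 4. At day 2, leaving out replicate 1 of clone 48, or replicate 2 or 3 of clone 66, left 2 genes called. At day 6, leaving out replicate 1 or 2 of clone 48, or replicate 2 or 3 of clone 66, left 1.

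RxraSA and RxraWT did not differ in any of the 9 genes by the test. None was called at day 0, 2 or 6, in the interaction of genotype and time or in the interaction of clone and genotype (edgeR's quasi-likelihood test), and DESeq2 called none of the 9 either. Over all tested genes 0% were called in each of these comparisons, with 139, 162 and 125 genes at an unadjusted p under 0.05 for the difference at days 0, 2 and 6. DESeq2 also called 0 genes, with 116, 130 and 101 at an unadjusted p under 0.05 on the same days. None of the 9 genes reached an unadjusted p under 0.05 in these edgeR comparisons. How closely these libraries bound a difference varied by gene, and the following intervals come from the fit without the pairing of same-numbered libraries. At day 6 the 95% interval of the log2 difference was -0.20 to 0.17 for Akt2, -0.24 to 0.20 for Tbc1d4, -0.31 to 0.20 for Slc2a4 and -0.31 to 0.12 for Slc2a1, and it was -0.78 to 0.75 for Irs1 and -0.84 to 0.60 for Hk2. The intervals at days 0 and 2 reached furthest for the same pair, from -0.96 to 0.58 for Irs1 and -1.02 to 0.54 for Hk2 at day 0. With a block for every same-numbered pair on every day the standard errors were smaller, and the log2 difference at day 6 was -0.03 ± 0.19 for Irs1 and -0.10 ± 0.11 for Hk2. Over all genes that fit called 0, 1 and 0 genes at days 0, 2 and 6, none of them among the 9, with 704, 692 and 477 at an unadjusted p under 0.05.

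**Figure D4:**
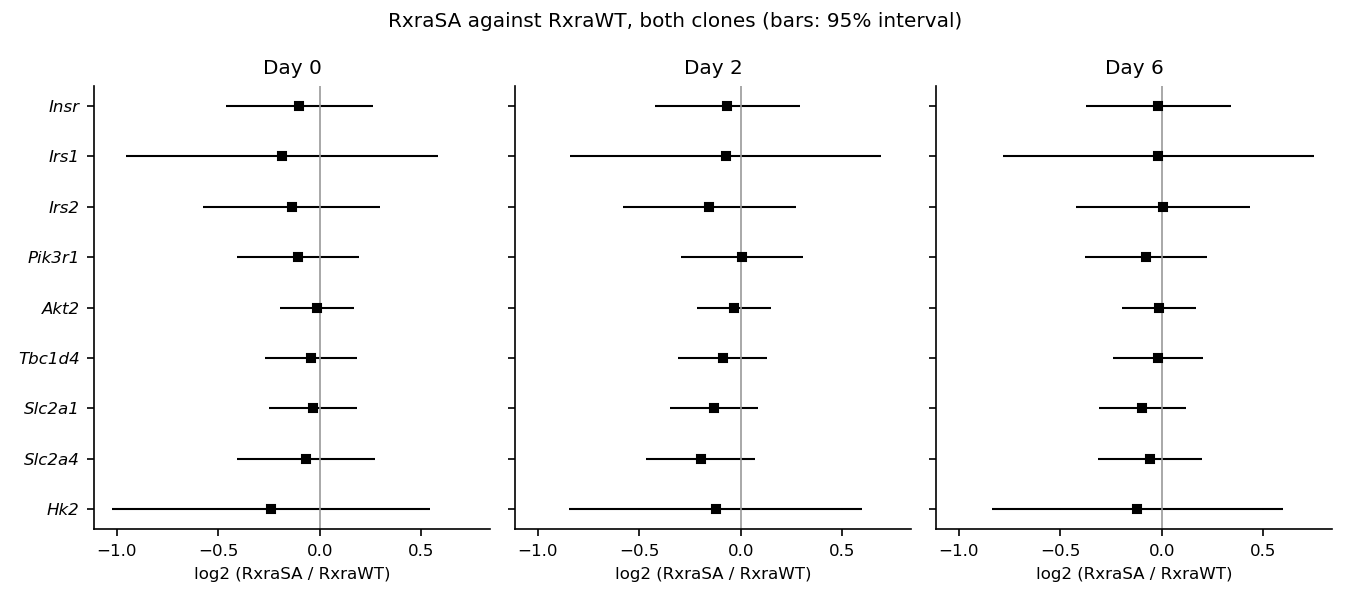
Log2 ratio of RxraSA over RxraWT for each gene at each day (x axis, with its 95% interval as a bar) over both clones. The intervals come from the fit without the pairing. Every interval includes 0, and those of Irs1 and Hk2 are the widest at day 6.

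Between same-numbered libraries RxraSA was lower in all 6 pairs at day 2 for Slc2a4, Slc2a1 and Tbc1d4. Slc2a4 at day 2 in clone 48 was 12.6, 12.2 and 11.2 CPM in RxraWT and 9.62, 10.7 and 9.70 CPM in RxraSA, and in clone 66 it was 14.2, 14.6 and 15.9 CPM in RxraWT and 13.8, 13.0 and 13.7 CPM in RxraSA. The RxraWT and RxraSA libraries did not overlap in either clone, but the RxraWT libraries of clone 48 lay below every RxraSA library of clone 66. The log2 difference was -0.20 ± 0.13 for Slc2a4, -0.13 ± 0.11 for Slc2a1 and -0.09 ± 0.11 for Tbc1d4, and none was called (edgeR adjusted p = 1 for each, and unadjusted p = 0.143, 0.222 and 0.414). With a block for every pair the differences were -0.20 ± 0.06, -0.13 ± 0.05 and -0.09 ± 0.06 (edgeR unadjusted p = 0.00525, 0.0174 and 0.149, and adjusted p = 1 for each), and Slc2a4 and Slc2a1 at day 2 were the only values of the 9 genes at these days with an unadjusted p under 0.05 in that fit. These 3 genes were picked out after their values were seen. How many of all tested genes were lower in all 6 pairs was not counted, so whether 3 of 9 is unusual cannot be said. The median log2 difference over all tested genes at day 2 was -0.01. At day 6 RxraSA was lower in 4, 5 and 3 of the 6 pairs.

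At day 6 Insr, Irs1 and Hk2 varied widely between libraries of the same clone, and RxraWT and RxraSA libraries of the same number varied together. Irs1 at day 6 in clone 48 was 123, 160 and 359 CPM in RxraWT and 80.2, 147 and 291 CPM in RxraSA for replicates 1, 2 and 3, and in clone 66 it was 62.4, 169 and 215 CPM in RxraWT and 72.8, 219 and 252 CPM in RxraSA. Hk2 at day 6 in clone 48 was 60.6, 83.8 and 199 CPM in RxraWT and 46.7, 80.5 and 168 CPM in RxraSA, and in clone 66 it was 77.6, 220 and 270 CPM in RxraWT and 84.6, 223 and 250 CPM in RxraSA. Replicate 3 was highest and replicate 1 lowest in all 4 cell lines for both genes, and for Insr too, with a highest to lowest ratio of 1.81 to 2.01 for Insr, 2.91 to 3.63 for Irs1 and 2.95 to 3.59 for Hk2. The share of counts on mitochondrial genes moved with them at day 6. It was 2.08, 2.55 and 6.71% in RxraWT and 1.96, 2.18 and 4.15% in RxraSA of clone 48, and 2.48, 4.98 and 6.58% in RxraWT and 2.35, 6.78 and 9.09% in RxraSA of clone 66, again for replicates 1, 2 and 3. Its part in these levels was not tested. Slc2a4 was steadier at day 6, with ratios between 1.08 and 1.25 in the same cell lines. Wide spread was not confined to day 6. The ratio of Irs1 reached 3.27 at day 0 and 2.79 at day 2, and that of Hk2 reached 3.44 and 1.94. For Irs1 at day 0 the highest replicate number differed between RxraWT and RxraSA in both clones.

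The other genes of the pathway, in 5 lists of 76 genes of which 67 were tested, moved in both directions. From day 0 to day 2, 24 rose and 27 fell, from day 2 to day 6, 29 rose and 15 fell, and from day 0 to day 6, 25 rose and 21 fell, with median log2 changes of -0.02, 0.24 and 0.04. Of all 16723 genes tested 35.8% rose and 37.5% fell by day 2, 31.9% rose and 30.1% fell from day 2 to day 6, and 32.9% rose and 35.4% fell from day 0 to day 6, with medians of -0.015, 0.012 and -0.034, and no set test was run on the lists. The lists were insulin receptor proximal signalling, PI3K with AKT and phosphatases, the mTOR branch, GLUT4 vesicle traffic, and other glucose transporters and hexokinases.

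Among genes acting close to the receptor, 2 of 12 tested rose and 6 fell by day 2, where 73.3% of all tested genes were called in either direction. Enpp1, an ectoenzyme that can inhibit the insulin receptor, fell by 1.94 ± 0.13 on the log2 scale by day 2, and Gab1, a docking protein, fell by 1.24 ± 0.23 and then rose by 0.99 ± 0.23 to day 6. In the PI3K and AKT list, 6 of 17 rose and 5 fell by day 2. Trib3, a pseudokinase that binds AKT, rose by 3.58 ± 0.25, and Foxo1, a transcription factor that AKT keeps out of the nucleus, rose by 1.29 ± 0.34. Phlpp1, a phosphatase acting on AKT, fell by 0.65 ± 0.14 from day 0 to day 6.

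In the mTOR branch 8 of 12 genes rose and 3 fell by day 2, where 35.8% of all tested genes rose and 37.5% fell. Eif4ebp1, which encodes the translation repressor 4E-BP1, rose by 2.18 ± 0.10, and Deptor, an mTOR inhibitor, fell by 1.26 ± 0.23 and then rose by 1.51 ± 0.23 to day 6. Mlst8, a subunit shared by both mTOR complexes, fell by 0.89 ± 0.07 from day 2 to day 6. From day 0 to day 6 Tsc1 fell by 0.70 ± 0.07 and Rictor by 0.56 ± 0.10.

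Of the 18 genes of GLUT4 vesicle traffic, 7 rose and 7 fell by day 2, and 8 rose and 2 fell from day 0 to day 6. Over all tested genes 35.8% rose and 37.5% fell by day 2, and 32.9% rose and 35.4% fell from day 0 to day 6. Sort1, which encodes the vesicle sorting protein sortilin, rose by 3.25 ± 0.175 by day 2 and by 4.21 ± 0.18 by day 6. Lnpep, the aminopeptidase carried on GLUT4 vesicles, had medians of 535, 1136 and 539 CPM at days 0, 2 and 6. It fell by 1.04 ± 0.09 from day 2 to day 6. Rhoq, a small GTPase, fell by 1.45 ± 0.06 and then rose by 2.04 ± 0.06, and Stx4a, a plasma membrane SNARE protein, rose by 1.14 ± 0.19 from day 2 to day 6. The list of other glucose transporters and hexokinases also held genes of neither kind. Of its 8 genes tested, 1 rose and 6 fell by day 2. Slc2a9, a urate transporter of the glucose transporter family, was the one that rose (1.05 ± 0.13), before falling by 1.12 ± 0.13.

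**Figure D5:**
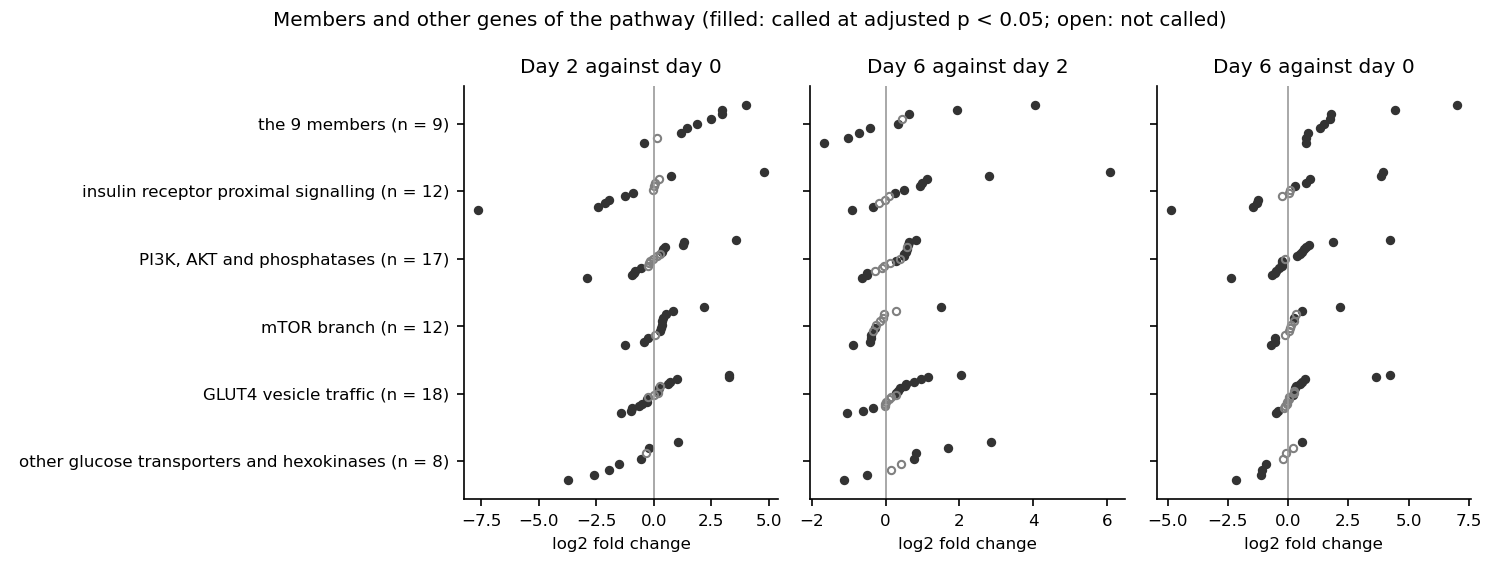
Log2 fold change between days (x axis) of the 9 genes and of the tested genes of the 5 pathway lists (1 line for each list, with the number tested), where filled points were called and open points were not. Genes lie on both sides of 0 in each of the 5 lists, while all 9 genes lie above 0 from day 0 to day 6.

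The genes most like each of the 9 over the 36 libraries were found by Pearson correlation of log2 CPM among 9726 genes whose average log2 CPM was 3 or more. The libraries share days and clones, so the coefficients describe the time course and carry no test. For Insr they were Fam13a (0.979), Tns1 (0.97) and C2cd2 (0.967), and for Irs1 they were Mark2 (0.961), Gsk3b (0.953) and Phf2 (0.95). For Irs2 they were Cnnm2 (0.991), Prkce (0.984) and AC122442.1 (0.98), and for Pik3r1 they were Atad3a (0.978), Mrps2 (0.965) and Gpat4 (0.963). Akt2 was most like Poldip2 (0.975), Mocs1 (0.972) and Bcar3 (0.971), and Tbc1d4 most like Fitm2 (0.984), Entpd5 (0.984) and Miga2 (0.983). Slc2a1 was most like Slc16a3 (0.98), P4ha1 (0.976) and Col18a1 (0.974). Slc2a4 was most like Mfng (0.987), Gm10851 (0.986) and Trim67 (0.985), and Hk2 most like Exoc8 (0.984), 2610507B11Rik (0.972) and Gnpat (0.971). Among the 9 genes themselves Irs2 and Pik3r1 had the highest coefficient (0.958), and Slc2a1 had coefficients of -0.25 with Irs2 and -0.245 with Pik3r1.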

How the data were processed

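RNA of 36 libraries had been prepared with a stranded total RNA kit. Per the labels and the study's methods, the authors aligned reads with STAR 2.7.0d to GRCm38, used featureCounts 1.6.2 without a strand option to count pairs per GENCODE M21 gene, left out pairs assigned to more than 1 gene, and deposited raw counts without normalisation or filtering. Total counts were 11351078 to 24349263 per library. Genes with few counts, such as Slc2a4 at day 0, are limited by counting error. The series text calls the 3 libraries of a cell line and day technical replicates and the study's methods call them independent, so p-values measure the spread between these libraries, which may be technical.

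Counts were filtered with filterByExpr, scaled by TMM and tested with edgeR 4.0.16 in R 4.3.3 (quasi-likelihood test in the form of the study's edgeR 3.24.3, Benjamini-Hochberg over 16723 genes, called at an adjusted p under 0.05). The model of the study's methods, a coefficient for each genotype and day plus clone, gave differences between days and genotypes, and a coefficient for each of the 12 groups gave differences involving clones. Shares of paralogues were taken from TMM-scaled CPM per kilobase of exon and tested by exact permutation within clones (400 splits for days) or within same-numbered pairs (64 splits for genotypes), adjusted over 42 tests. Log2 CPM for correlations used a prior count of 2. Python 3.11.15 with pandas 2.3.3, NumPy 2.4.6, SciPy 1.17.1 and matplotlib 3.10.9 did the rest. The fits were tested on simulated data with known changes.

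Same-numbered RxraWT and RxraSA libraries deviated together from their group means in all 18 pairs (correlation 0.176 to 0.93 over 9381 genes, mean 0.71). The pairing was weaker in most pairs of day 0, with 0.432, 0.176 and 0.359 in clone 48 and 0.921, 0.236 and 0.71 in clone 66. At days 2 and 6 the correlation ran from 0.471 to 0.93. The replicate number of a clone served as a block in an alternative fit. The main fit counts the libraries of a pair as independent, so its standard errors and p-values between days and between clones may be too small. The block does not mend this between clones. It takes the spread between replicate numbers out of the error, and no replicate is shared between clones. Replicates were not duplicates (chi-square per degree of freedom 12.0 to 188). Other alternatives were DESeq2 1.42.0, edgeR's newer test, library size alone, RLE size factors, 1 CPM in at least 6 libraries, no filter, no clone term, clone-specific groups, omission of mitochondrial genes, shares of counts not divided by length, shares tested without the pairs, and each replicate number of a clone left out. Leaving out the RxraSA library of replicate 1 of clone 48 at day 0, a separate block for every pair on every day, and lengths without shared exon bases were chosen after seeing the data.

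Named were the 9 genes, Rxra, their paralogues, cell type markers, up to 5 pathway genes with the largest rise and up to 5 with the largest fall per pair of days among those called whose average log2 CPM was 3 or more, and the 3 genes most correlated with each of the 9. Some of the genes so named, and 1 share that needs one of them, are not reported here. The 9 genes and all lists were chosen with earlier results of these data known.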

Additional observations from a re-analysis of the deposited data

Results flagged for a closer look

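A single library stood apart in Tbc1d4. The RxraSA library of replicate 3 of clone 48 at day 2 had 164 CPM, while the other 5 RxraSA libraries of that day lay between 130 and 141 CPM. The RxraWT library of the same number was the highest of its own group too, at 177 CPM. The gap to its nearest neighbour was 0.633 of the range of the 6 libraries on the log2 scale. It was the only one among 54 groups of 6 libraries examined, of which chance would mark about 1 in 20.

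The clones differed in the change of Pik3r1 from day 0 to day 2. The log2 difference between clone 66 and clone 48 was -0.74 in the test of the difference itself (edgeR adjusted p = 0.00323), and clone and library pool cannot be told apart. It was not called without replicate 2 of clone 66 (-0.61, edgeR adjusted p = 0.101). Of all tested genes, 6.84% were called in the same comparison.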

How the results depend on the processing

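Directions were stable wherever a call was made, and no called value changed sign under any alternative. The counts of the 9 genes, of pathway genes and of shares called between days stayed within 1.5 times under every alternative run. No alternative called any of the 9 genes between genotypes. No share was called between genotypes either, but a single share tested within pairs could not have passed the adjustment. The counts that moved concerned clones. With the replicate block, 4 genes in place of 2 were called between clones at day 0 (Slc2a1, 0.26, and Akt2, 0.21, were added) and 5 in place of 3 at day 6 (Hk2, 0.87, and Pik3r1, -0.23, were added), and 2 in place of 1 in the interaction of clone and time. The block changed no other call among the 9 genes, and it also raised the calls over all tested genes between days. Its p-values between clones leave out the spread between replicate numbers and may be too small. The share of all tested genes called between clones with the block is not given here. DESeq2 also called 2 in that interaction, adding Slc2a4 from day 0 to day 6 (-0.61, adjusted p = 0.0328). Without the RxraSA library of replicate 1 of clone 48 at day 0, 1 gene was called between clones at day 0. Leaving out each replicate number of a clone gave 1 to 4 genes at day 0, 2 to 4 at day 2, 1 to 4 at day 6 and 0 to 2 in the interaction, and for the 9 genes 8, 6 to 9 and 8 to 9 between days 0 and 2, 2 and 6, and 0 and 6. Why these counts moved was not tested. Akt2 between clones at day 6 was not called without a filter (adjusted p = 0.156), with RLE size factors (0.058) or with library size alone (0.115), and Slc2a4 at day 2 was not with library size alone (0.0532). Hk2 at day 6 was called without a filter (0.85, adjusted p = 0.0129). Of 459 values of single genes between days, 8 fell below the threshold and 1 rose above it. Of 1242 involving clones, 24 fell below and 12 rose above. Signs differed between values that were both not called in 2 of the former and 75 of the latter, in 58 of 972 genotype values and in 15 of 378 shares.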
